A study of Mus musculus with 4 samples.

Results

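The testis-specific serine kinases are 6 genes, Tssk1 to Tssk6, found by their symbols among the 22311 genes listed for each testis sample. All 6 were listed once per sample. To be tested, a gene had to reach an FPKM of 1 in 2 or more samples, which all 6 members and 12985 genes in all did. FPKM, fragments scaled to gene length and sequencing depth, allows levels to be compared between genes. RNA was taken from whole testes of male mice at postnatal day 24, from 2 Rfx2 mutant samples (rfx2-/-) and 2 control samples. The mutant mice carry a targeted allele from 1 embryonic stem cell clone, in which the exons for the DNA-binding domain of RFX2 are replaced by a neomycin-resistance cassette in every cell. By the labels, control animals were wild type and the strain was DBA. The study's text instead calls the controls heterozygous and gives a mixed background, partly C57BL/6, that does not name DBA, so the control genotype and the strain are uncertain. The study describes the samples of a genotype as biological replicates.

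TSSK proteins are serine/threonine kinases of the calcium/calmodulin-dependent kinase group, made almost only in post-meiotic male germ cells. Male mice without Tssk1 and Tssk2, without Tssk3 or without Tssk6 are infertile, and loss of Tssk4 impairs the sperm flagellum and fertility. TSSK1 and TSSK2 act with their substrate TSKS in late spermatids, while TSSK6 is needed for packaging of the sperm chromatin. The comparison asks whether these spermatid kinases depend on RFX2, a transcription factor of spermatocytes and round spermatids that binds the X-box motif and is required for flagellum assembly.

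Mutant 1 stood apart from the other samples in late spermatid transcripts, and results are given with and without it. The summed FPKM of 9 elongating spermatid markers was 1302 in mutant 1, far under the 6526 of mutant 2 and the 7988 and 5401 of control 1 and control 2. All 9 of these markers were lowest in mutant 1, where they lay at least 2-fold below mutant 2. At a later age, the study found no elongating spermatids in mutant testes. The name of this list therefore does not show that such cells were present in mutant 2. The study also describes a delay in some mutants at an earlier age, with fewer round spermatids. Whether mutant 1 was such an animal was not tested. The 7 round spermatid markers summed to 422 in mutant 1 and 637 in mutant 2, against 608 and 506 in the controls, and 5 of the 7 were lowest in mutant 1. Spaca7 was below both controls in both mutants, at 31.7 and 45.3 against 78.5 and 61.0, as were 15.2% of the genes tested. For the other 6 round spermatid markers the mutant and control samples overlapped. Sums of 7 spermatocyte markers were between 2805 and 3242 in all 4 samples, with 3004 in mutant 1. Most of each sum was Ldhc, at 2379 and 2426 in the mutants and 2602 and 2155 in the controls. Pgk2 was lower in both mutants, at 123 and 169 against 225 and 195, as were 15.2% of the genes tested. For the other 6 markers the mutant and control samples overlapped. Summed FPKM of 5 Sertoli cell markers was 114 and 93.9 in the mutants and 74.9 and 110 in the controls, and that of 5 spermatogonia markers 29.2 and 25.5 against 20.8 and 31.9. The 5 Leydig cell markers summed to 417 and 234 in the mutants and 368 and 134 in the controls, and the 4 macrophage markers to between 8.74 and 12.6. Insl3 alone made up a large part of the Leydig sums, at 326 and 157 in the mutants and 266 and 51.5 in the controls. No marker was at 0 in any sample. None was called in limma at an adjusted p under 0.05, at which 2.52% of all genes tested were lower and 0.308% higher. In bulk testis RNA, fewer cells of a type and less RNA per cell cannot be told apart. The targeted gene was low in both mutants: Rfx2 had an FPKM of 36.7 in mutant 1 and 39.8 in mutant 2, against 123 and 89.4 in the controls. These values are for the whole gene, of which only some exons are replaced.

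Tssk1 and Tssk2 lie in tandem on the plus strand of chromosome 16 in NCBIM37 (mm9), Tssk1 from 17894296 to 17895744 and Tssk2 from 17898730 to 17900116, with 2985 bases between them. Each is a single exon, as is Tssk6 on chromosome 8 from 72426083 to 72427415. Tssk3 has 2 exons on chromosome 4 from 129166258 to 129168266, Tssk5 has 8 exons on chromosome 15 from 76202388 to 76205368, and both lie on the minus strand. Tssk4 lies on the plus strand of chromosome 14 from 56269019 to 56271376, with transcripts of 3 and 4 exons. The coding sequences of Tssk1 and Tssk2 were 82.0% identical over 1048 aligned bases, while the other pairs were 59.7% to 64.7% identical. The longest identical run between the Tssk1 and Tssk2 transcripts was 113 bases, and 8.93% of the 50-base windows of Tssk1 also occurred in Tssk2. Reads from these windows cannot be assigned to one of the pair, so a small part of their FPKM is uncertain. No 50-base window of Tssk3, Tssk4 or Tssk5 occurred in a protein-coding transcript of another gene.

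Exonic sequence of Ndufa13, the gene of a subunit of mitochondrial complex I, covers 375 of the 1333 bases of Tssk6 on the opposite strand. Use of strand in counting is not stated in the sources used here, so reads in the overlap cannot be told apart. The FPKM of Ndufa13 was 45.8 and 51.7 in the mutants and 47.6 and 36.8 in the controls.

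The stretches next to the start sites of the tandem pair are shown because Tssk1 and Tssk2 had like levels in the controls, and they are printed 5′ to 3′ on the plus strand of NCBIM37 (mm9). Capitals mark bases that are identical in an alignment of both, 41 of 49 aligned bases. Positions count back from the annotated start, with -1 as the last base before it.
Tssk1, chr16:17894243-17894294, from -53 to -2: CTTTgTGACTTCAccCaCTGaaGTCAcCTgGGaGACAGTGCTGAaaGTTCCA
Tssk2, chr16:17898667-17898715, from -63 to -15: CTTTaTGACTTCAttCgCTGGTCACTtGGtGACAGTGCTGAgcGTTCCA

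No member had a match to the standard X-box motif (gap of 0 to 3 bases, either strand) within 1000 bases of its annotated start. Of the 12620 tested genes found once in the annotation, 4.60% had one. With 1 mismatch allowed, Tssk2, Tssk5 and Tssk6 had a match, as did 48.0% of those genes. The matches of Tssk2 (from -43 to -31) and Tssk6 (from -40 to -27) lay just before the start, and that of Tssk5 after it, from 487 to 501. The first 2 are shown in capitals within 30 bases each, on the plus strand of the same build.
Tssk2, chr16:17898679-17898708, from -51 to -22: attcgctgGTCACTTGGTGACagtgctgag
Tssk6, chr8:72426035-72426064, from -48 to -19: cagaaattGTTACCCGGGCAATaaaagtca
The cyclic AMP response element TGACGTCA, a motif that reads the same on both strands, was in none of the members in the 250 bases before the start. It was there in 2.67% of those genes. Its core TGACG (either strand) was found in Tssk6 from -73 to -69, and in 25.6% of those genes. A match is a description of the letters and not a site of binding.

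In the controls, the FPKM of Tssk1 was 148 in control 1 and 125 in control 2, and that of Tssk2 was 141 and 119.9. The ratio of Tssk2 to Tssk1 within a sample was 0.948 in control 1 and 0.962 in control 2. Tssk2 was thus slightly lower in each control, a difference that was not tested. By their mean FPKM in the controls, they ranked 461 and 495 among 22311 genes. Tssk3 followed at 61.0 and 46.6, Tssk4 at 57.8 and 39.9, and Tssk6 at 44.0 and 30.1. The ranges of Tssk3 and Tssk4 over the controls overlapped, as did those of Tssk4 and Tssk6. Tssk5 was lowest at 12.3 and 10.5 and did not overlap any other member. The order of the 6 genes was the same in both controls, and all 6 were higher in control 1 than in control 2, by 1.16-fold to 1.46-fold.

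**Figure D1:**
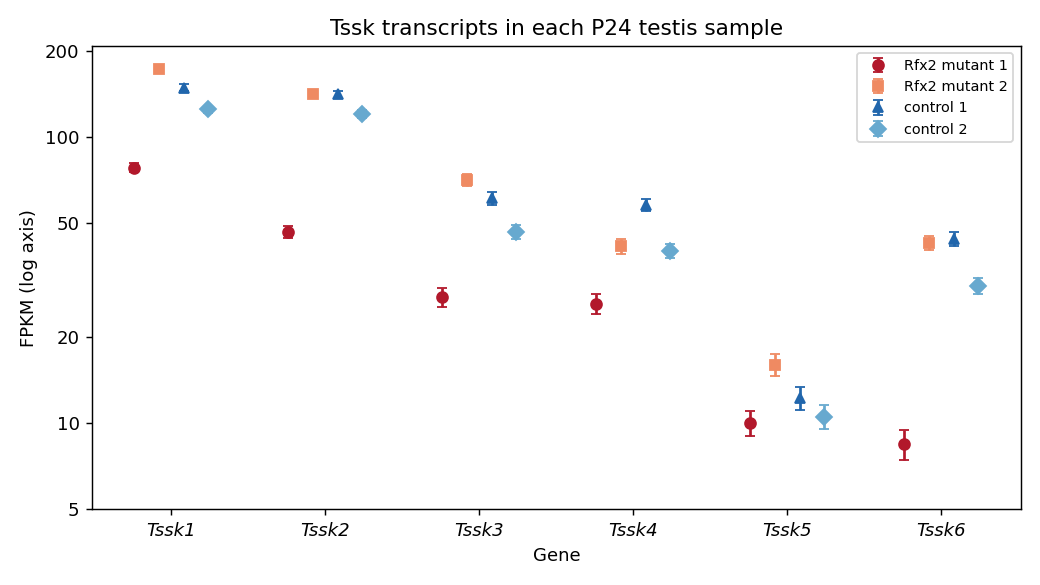
FPKM of the 6 Tssk genes (log axis) in Rfx2 mutant 1 and 2 and control 1 and 2, where bars span the confidence bounds that the authors deposited for each value. Mutant 1 is the lowest sample for all 6 genes, and mutant 2 lies among or above the controls.

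The mutant samples differed from each other more than the controls did. Tssk6, required for sperm chromatin condensation, had an FPKM of 8.45 in mutant 1 and 42.6 in mutant 2, against 44.0 and 30.1 in the controls. Mutant 2 thus lay between the controls, while mutant 1 was 5.04-fold below mutant 2. Tssk2 had an FPKM of 46.6 in mutant 1 and 141 in mutant 2, against 141 and 119.9 in the controls, a 3.02-fold difference between the mutants. For Tssk1 the FPKM was 78.1 in mutant 1 and 173 in mutant 2, so that mutant 2 exceeded both controls and mutant 1 was below both. Tssk3 was found at 27.6 in mutant 1 and 70.7 in mutant 2, again on either side of the controls at 61.0 and 46.6. The low and the high mutant value of Tssk1 and Tssk3 were 2.21-fold and 2.56-fold apart.
Tssk4, a kinase of the flagellum, had an FPKM of 26.1 in mutant 1 and 41.5 in mutant 2, against 57.8 and 39.9 in the controls, so only mutant 1 lay outside the control range. The FPKM of Tssk5 was 9.99 in mutant 1 and 16.0 in mutant 2, against 12.3 and 10.5 in the controls. Its mutant samples lay on both sides of the controls and differed 1.60-fold.

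All 6 members were lowest in mutant 1, as were 17.7% of the genes tested. On the log2(FPKM + 1) scale, 4 of the 6 (Tssk1, Tssk2, Tssk3 and Tssk6) were at least 2-fold lower in mutant 1 than in mutant 2, as were 4.28% of the genes tested. The median of mutant 1 minus mutant 2 was -1.23 over the members and 0.12 over all genes tested. No member was 2-fold apart between the controls, where 0.932% of the genes tested were. The deposited confidence bounds correspond to between 281 and 5548 fragments per member and sample, and their half-width was between 2.69% and 11.9% of the FPKM. For 5 of the 6 members, Tssk5 being the exception, the upper bound in mutant 1 was under the lower bound in every other sample. These bounds cover counting error only, so the distance of mutant 1 is larger than the counting error of these 5 genes but rests on 1 sample.

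Over both samples of each genotype, no Tssk gene differed between mutant and control testes in limma at an adjusted p under 0.05 (Benjamini-Hochberg over 12985 genes). Of all genes tested, 2.52% were lower and 0.308% were higher at that threshold. At an unadjusted p under 0.05, none of the 6 members passed either, where 6.68% of all genes were lower and 2.01% higher. Tssk6 had the lowest log2 fold change, -0.88 (standard error 0.60, 95% interval -2.27 to 0.50, adjusted p of 0.9999 from limma). The log2 fold change of Tssk2 was -0.67 (95% interval -1.67 to 0.33). For Tssk4 it was -0.53, with a 95% interval of -1.14 to 0.075 and an adjusted p of 0.734 from limma. Tssk3 and Tssk1 had log2 fold changes of -0.26 and -0.23, and Tssk5 one of 0.14. The intervals of all 6 members included 0, and those of Tssk1, Tssk2, Tssk3, Tssk4 and Tssk6 also included a 2-fold fall. The median log2 fold change of the members was -0.40, against 0.032 over all genes tested. For all 6 members the mutant and control samples overlapped, as for 68.5% of the genes tested.

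**Figure D2:**
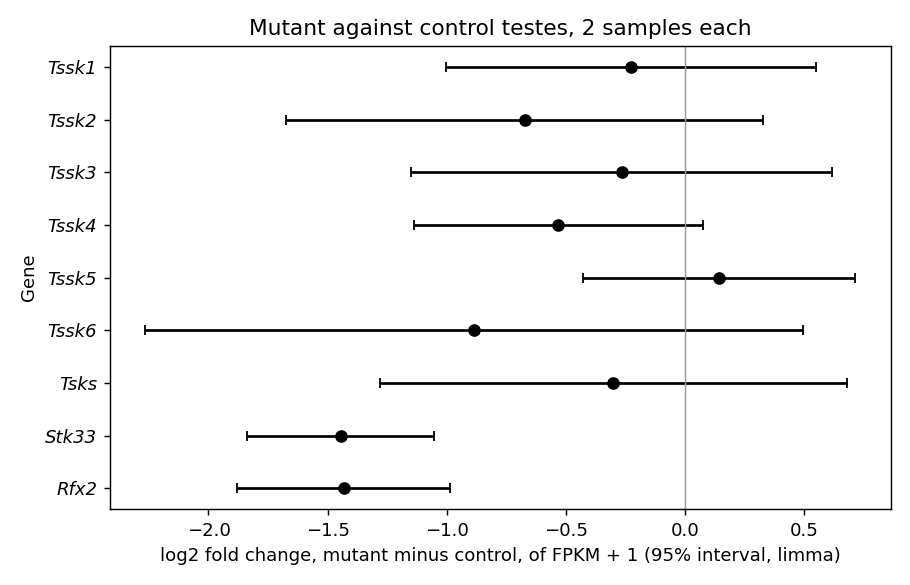
Log2 fold change of FPKM + 1, mutant minus control, for the 6 Tssk genes, the TSSK substrate gene Tsks, the kinase gene Stk33 and Rfx2, where points are limma estimates from 2 samples of each genotype and bars are 95% intervals. The intervals of the Tssk genes and Tsks include 0, and those of Stk33 and Rfx2 lie below 0.

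The comparison depended on which mutant sample was used. Without mutant 1, log2 fold changes were 0.34 for Tssk1, 0.11 for Tssk2, 0.40 for Tssk3, -0.21 for Tssk4, 0.46 for Tssk5 and 0.22 for Tssk6. None passed in limma in that fit, in which 3.33% of all genes were lower and 1.25% higher. Without mutant 2, they were -0.79 for Tssk1, -1.46 for Tssk2, -0.93 for Tssk3, -0.86 for Tssk4, -0.17 for Tssk5 and -1.99 for Tssk6. In that fit 5 members passed as lower, all but Tssk5, and none as higher, while of all genes 7.3% were lower and 0.786% higher. It has a single mutant sample, which is assumed to vary like the controls. For Rfx2 the log2 fold change was -1.37 without mutant 1 and -1.49 without mutant 2, and -1.43 with both (SE 0.19, adjusted p = 0.00617 from limma). The call of Rfx2 was lost without control 1, at -1.20 (adjusted p = 0.0628 from limma). Rfx2 had lower FPKM than both controls in both mutants, while no Tssk gene lay below both controls in mutant 2.

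Like the Tssk genes, all 9 elongating spermatid markers were lowest in mutant 1. In mutant 2 these markers ran from -0.36 for Tnp1 to 0.76 for Smcp on the log2 scale, relative to the control mean. For 2 of the 9, both mutants lay below both controls, as for 15.2% of the genes tested and no Tssk gene. The median log2 difference of these markers from the control mean was -1.39 in mutant 1 and 0.12 in mutant 2, beside -0.89 and 0.28 for the Tssk genes. Round spermatid markers had medians of -0.68 in mutant 1 and 0.25 in mutant 2. Over all genes tested the medians were 0.096 and -0.029. Among the spermatid markers, the lowest values in mutant 1 were those of Prm2 and Prm1, the protamines that replace histones in late spermatids, at -3.54 and -3.46. None of the Tssk genes reached these values. The part of spermatid content in the Tssk values was not tested. When each sample was centred on the mean of the 16 spermatid markers, the log2 fold changes ran from -0.30 for Tssk6 upwards, and those of Tssk1, Tssk3 and Tssk4 became 0.36, 0.32 and 0.057. That centring added 0.59 to every gene and so moved the median of all genes to 0.62. An equal shift cannot change a difference from that median, which for the median of the members was -0.43 with and without the centring. In that setting no member passed in limma, where of all genes 13 were lower and 0 higher.

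**Figure D3:**
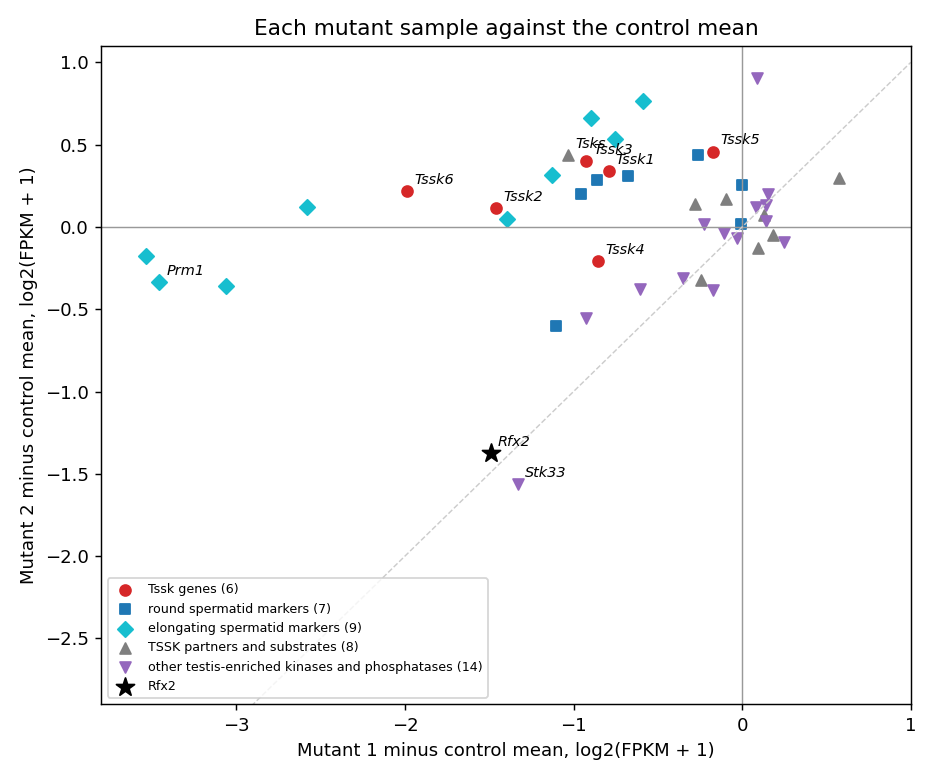
Difference from the control mean in mutant 1 (horizontal) and mutant 2 (vertical), both on the log2(FPKM + 1) scale, where each point is a gene of the lists named in the key and the dashed line marks equal differences. The Tssk genes lie left of 0 and between -0.21 and 0.46 vertically. The spermatid markers spread more widely, reaching -0.0028 horizontally for Acr, and -0.60 for Spaca7 and 0.76 for Smcp vertically. Rfx2 and Stk33 lie near the dashed line below 0.

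Not all members shifted by the same amount, and the make-up of the family differed between samples. The summed FPKM of the 6 genes was 197 in mutant 1 and 484 in mutant 2, against 464 and 372 in the controls. This is 0.0547% of all FPKM in mutant 1 and between 0.103% and 0.126% in the other samples. Tssk1 made up 39.7% of the sum in mutant 1 and 35.7% in mutant 2, against 32.0% and 33.5% in the controls. Tssk2 made up 23.7% and 29.0% in the mutants and 30.3% and 32.3% in the controls. The FPKM ratio of Tssk2 to Tssk1 was therefore 0.597 in mutant 1 and 0.815 in mutant 2, both below 0.948 and 0.962 in the controls. Tssk6 took 4.30% of the sum in mutant 1 and between 8.11% and 9.49% in the other samples. The share of Tssk5 was 5.07% in mutant 1 and 3.30% in mutant 2, above 2.64% and 2.83% in the controls. These shares are of a common sum and were not tested.

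**Figure D4:**
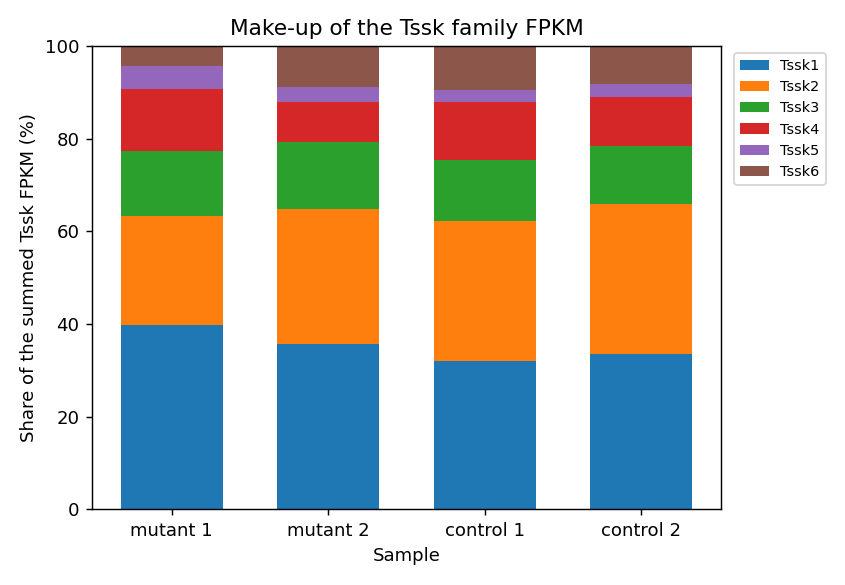
Share of each Tssk gene in the summed FPKM of the 6 genes (percent, stacked bars) for each sample. Tssk1 and Tssk2 together take most of the sum in every sample, and the Tssk6 segment is smallest in mutant 1, at 4.30%.

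Of the 8 genes for TSSK partners and substrates, none was lower or higher in mutant testes in limma at an adjusted p under 0.05. Of all genes tested, 2.52% were lower and 0.308% higher at that threshold. At an unadjusted p under 0.05, 1 of the 8 passed as higher and none as lower, against 2.01% and 6.68% of all genes. Tsks, the substrate of TSSK1 and TSSK2, had an FPKM of 48.6 in mutant 1 and 137 in mutant 2, against 120 and 84.6 in the controls. Like Tssk1, Tssk3 and Tssk5, it was lowest in mutant 1 and highest in mutant 2. Tssk2 was also lowest in mutant 1, but its values in mutant 2 and control 1 were almost equal, at 140.54 and 140.51. Tsacc, the co-chaperone that activates TSSK6, was listed under a RIKEN clone name at 187 and 225 in the mutants and 211 and 189 in the controls. Its mutant samples lay on either side of the controls, and mutant 1 was not far from them, unlike for Tssk6. Odf2, an outer dense fibre protein phosphorylated by TSSK4, had FPKM of 699 and 935 in the mutants and 961 and 747 in the controls. H2afx, the gene of the histone H2AX that TSSK6 can phosphorylate, had FPKM of 76.5 and 63.0 in the mutants and 53.2 and 49.2 in the controls. Both mutants were above both controls, as for 16.3% of the genes tested, by 0.43 on the log2 scale with an adjusted p of 0.458 from limma. Spag16, the gene of a central apparatus protein that binds TSSK2, had values of 72.8 and 68.9 in the mutants and 101 and 73.7 in the controls. Both mutants were thus below both controls, as for 15.2% of the genes tested, with mutant 1 close to control 2. Spag16 had a difference of -0.28 on the log2 scale with an adjusted p of 0.9999 from limma. The chaperone genes Hsp90aa1 and Hsp90ab1 and the phosphatase gene Ppp1cc had log2 fold changes of -0.018, 0.066 and 0.10. Over all 8 partner and substrate genes, the median log2 fold change was 0.010, beside 0.032 over all genes tested.

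Of 14 other kinase and phosphatase genes with high or specific expression in testis, 1 was lower and none was higher at an adjusted p under 0.05 in limma. Of all genes tested, 2.52% were lower and 0.308% higher at that threshold. At an unadjusted p under 0.05, 2 of the 14 were lower and none was higher, against 6.68% and 2.01% of all genes. The gene called was Stk33, a serine/threonine kinase of the same kinase group, with FPKM of 44.6 in mutant 1 and 37.8 in mutant 2, against 121 and 107 in the controls. For 6 of the 14 (Stk33, Hipk4, Mak, Cdk16, Fer and Aurkc), both mutants lay below both controls, as for 15.2% of the genes tested. For 3 of the 14 both mutants lay above both controls, as for 16.3% of the genes tested. Stk33 differed by -1.45 on the log2 scale (SE 0.17, adjusted p = 0.00287 from limma). The call was lost when samples were centred on spermatid markers, at -0.86 (adjusted p = 0.822 from limma). That centring moves the 2 mutant samples by unlike amounts for every gene. Over all genes, the calls fell from 327 lower and 40 higher to 13 and 0. The lost call is therefore not particular to Stk33. Relative to the median of all genes, Stk33 was at -1.48 in both settings, as must be, since the centring moved every gene equally. Hipk4, a kinase needed for shaping the spermatid head, had FPKM of 20.8 and 27.2 in the mutants and 48.3 and 33.8 in the controls, with an adjusted p of 0.215 from limma. Mak, Mast2, Csnk2a2, Ppp3cc and Ppp3r2 had log2 fold changes between -0.074 and 0.14. Tesk1, Tesk2, Stk31, Cdk16, Fer and Aurkc lay between -0.49 and 0.18 on the same scale, and Camk4, a calmodulin-dependent kinase, at 0.50. Of the 14, 5 were lowest in mutant 1, and none was at least 2-fold lower in mutant 1 than in mutant 2. The difference between Stk33 and the Tssk genes was not tested.

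Of 6 regulators of spermatid transcription, none passed at an adjusted or an unadjusted p under 0.05 in limma. Over all genes tested, 2.52% were lower and 0.308% higher at the adjusted threshold, and 6.68% and 2.01% at the unadjusted one. Crem, which encodes an activator of post-meiotic genes, had FPKM of 53.7 and 61.1 in the mutants and 64.6 and 56.6 in the controls. Fhl5, the gene of the CREM co-activator ACT, had FPKM of 23.6 in mutant 1 and 74.8 in mutant 2, against 78.1 and 67.7 in the controls. It was the regulator with the lowest value in mutant 1 relative to the controls, at -1.58 on the log2(FPKM + 1) scale, and mutant 2 lay within the control range. Kif17, a kinesin that moves ACT, had FPKM of 37.3 in mutant 1 and 70.3 in mutant 2, on either side of 57.0 and 44.0 in the controls. Sox30, Mybl1 and Tbpl1 had log2 fold changes of -0.32, -0.12 and 0.14.

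Among the 5 genes with the profile nearest to that of the summed Tssk FPKM were 4922501L14Rik, 4933402J07Rik, 4931428F04Rik and Fam71e2. Likeness was the Euclidean distance between centred log2(FPKM + 1) values over the 4 samples, and for these 4 genes it ran from 0.070 for 4922501L14Rik to 0.090 for Fam71e2. The FPKM of Fam71e2 was 32.0 in mutant 1 and 79.6 in mutant 2, with 71.7 and 57.3 in the controls. The distance of single members from the profile of their sum ran from 0.17 for Tssk3 to 0.80 for Tssk6. A likeness over 4 samples is a description only. All 4 named genes were lowest in mutant 1, which follows from how they were picked.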

How the data were processed

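Testis RNA of 2 mutant and 2 control samples was sequenced on an Illumina HiSeq instrument. The submitters' processing notes name mm9, TopHat2 2.0.6 and Cuffdiff, and the authors deposited 1 table per sample, with an FPKM and its lower and upper confidence bound per gene. FPKM are scaled by gene length and depth within a sample, and the files give no read counts. Fragments were estimated as the square of 2 times the FPKM over the distance to its upper bound, which takes the bounds as 2 SD of a count.

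Values that share a symbol were summed, and log2(FPKM + 1) was compared in limma 3.58.1 under R 4.3.3 (trend, two-sided, Benjamini-Hochberg, threshold 0.05). This test was used because Cuffdiff cannot be run on deposited FPKM. A fold change on this scale understates that of low genes. The fit was run on simulated data with known changes. Genes under an FPKM of 1 in all samples or all but 1 were not tested. The p-values weigh the difference between genotypes against the variance between samples of a genotype, moderated by that of all genes tested. The members and lists were chosen with earlier results of these data known. The genes named are the members, the genes of 3 fixed lists, Rfx2, spermatid markers that mark the extremes, and the 5 nearest profiles, 1 of which is not reported here. Ndufa13 was added because it overlaps Tssk6. Ldhc, Pgk2 and Insl3 were added because they shape the sums of their marker lists or depart from them. Tsacc and Fer were matched by synonyms, and Rhox5 was unmatched, leaving 5 Sertoli cell markers. Start sites and transcripts come from GENCODE M1 on NCBIM37. Alternatives were other pseudocounts, filters, scalings, eBayes settings, entries, blocks and left-out replicates, and 1 mismatch in the X-box.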

Additional observations from a re-analysis of the deposited data

How the results depend on the processing

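With 2 samples per genotype, the intervals are wide and genes that were not called are not shown to be unchanged. Of all genes, 327 were lower and 40 higher, and these numbers moved to 199 and 17 without a filter, 202 and 17 with a filter at an FPKM of 5, 206 and 16 with median-ratio scaling, and 13 and 0 when centred on spermatid markers. Robust eBayes gave 67 higher genes. Leaving out a replicate gave between 167 and 948 lower and between 13 and 162 higher genes, and the number of lower genes was highest without mutant 2 and that of higher genes without mutant 1. The number of lower Tssk genes was 0 except with the replicate block (1) and without mutant 2 (5), so that it ran from 0 to 5 over the left-out replicates. Their median log2 fold change ran from -0.89 to 0.28 over the left-out replicates and was 0.19 when centred on spermatid markers. Tssk1, Tssk3 and Tssk4 reversed in that setting, to 0.36, 0.32 and 0.057, since it added 0.59 to every gene. Relative to the median of all genes, the members' median was -0.43 with and without it, which the equal shift fixes in advance. Over the left-out replicates, Tssk1 ran from -0.79 to 0.34, Tssk2 from -1.46 to 0.11, Tssk3 from -0.93 to 0.40, Tssk5 from -0.17 to 0.46 and Tssk6 from -1.99 to 0.22, each lower without mutant 2 and higher without mutant 1. Rfx2 passed the threshold in most settings, but not without a filter (-1.43, adjusted p = 0.0607 from limma), with median-ratio scaling (-1.45, adjusted p = 0.0829), when centred on spermatid markers (-0.85, adjusted p = 0.822) or without control 1 (adjusted p = 0.0628), and ran from -1.66 to -1.20 over the left-out replicates. Stk33 was the only called gene among the testis kinases and phosphatases, and their number of lower genes was 0 when centred on spermatid markers, 2 with the replicate block, and 1 to 2 over the left-out replicates. The lower transcription regulators numbered 0 to 1 over the left-out replicates, as did the lower partners. The cause of these changes was not tested.

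Replicate numbers 1 and 2 occur in both genotypes. Across 12985 genes, samples that share a number deviated from their group means with a correlation of -0.15, and nothing in the labels says that a number marks a pair. With a replicate block from the labels, which leaves 1 residual degree of freedom, 525 genes were lower and 70 higher, among them Tssk6 (adjusted p = 0.00736 from limma) and 1 transcription regulator, Fhl5. With the crossed replicate block, added after seeing the data, no Tssk gene passed.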
